A study of Mus musculus with 20 samples.

Results

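The common gamma chain cytokines and their receptors were described here across the sorted epidermal populations by 10 genes, taken by name from a table of 53380 genes. They were the shared receptor chain Il2rg, the receptor chains Il2rb, Il2ra, Il15ra, Il7r, Il4ra and Il21r, the kinase Jak3, and the ligands Il15 and Il7. Each of the 10 was found once in the table and passed the filter on low values, so all were tested among 17204 genes. Bulk RNA-seq had been performed on cells sorted by flow cytometry from mouse dorsal skin, in 20 libraries. The 5 DETC libraries held integrin-α6-negative, Sca1-low, Thy1-positive dendritic epidermal T cells (DETCs). Integrin-α6-positive keratinocytes gave the other populations, with 4 libraries of Sca1-positive Thy1hi cells, 4 of Sca1-positive Thy1- cells, 4 of Sca1-negative CD34-positive hair follicle stem cells (HFSCs), and 3 of Sca1-positive Thy1hi cells that also carried the YFP label (YFP+).

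Per the study's methods, DETCs, HFSCs, Thy1hi and Thy1- cells were sorted from wild-type C57BL/6J mice of 8 weeks, and YFP+ cells from Thy1-CreERT2;R26-EYFP mice, in which a Thy1 promoter drives a Cre that tamoxifen activates. The GEO labels instead give every library the genotype Thy1.2CreERT2-Rosa26-EYFP with no treatment, and a different age for each, from 8 to 27 weeks. Genotype and age therefore cannot be taken as settled for any population. The labelled ages do not overlap between populations, so by the labels age and population cannot be told apart. The label for the cell type of the YFP+ libraries also reads ScaI-, whereas their titles name ScaI with no sign and the methods give a Sca1-positive gate, by which they are described here. Mice were pooled, the number behind each library was not clear, and a YFP+ library is a subset of the Thy1hi gate. Libraries were prepared in more than 1 batch with different kits, and the labels do not say which library belongs to which, so batch could not be examined.

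Interleukins 2, 4, 7, 9, 15 and 21 signal through receptors that share the common gamma chain, which pairs with a private chain for each ligand. The kinase Jak3 binds the gamma chain and, with Jak1 on the partner chain, activates STAT factors, chiefly Stat5 for interleukins 2, 7 and 15, Stat6 for interleukin 4 and Stat3 for interleukin 21. DETCs are gamma delta T cells that live between keratinocytes, and interleukin 15, which other cells present on Il15ra, is known to sustain them.

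Libraries held 7781256 to 12982393 reads on genes. T cell markers were high in the DETC gate: the summed normalized count of 10 T cell genes was 20030 to 43020 in DETCs and 147 to 497 in the other 15 libraries. Keratinocyte transcripts were also present in DETC libraries, where 8 basal keratinocyte markers summed to 14795 to 62753, against 197295 to 269345 in Thy1hi cells. DETC library a stood apart with the highest T cell sum and the lowest keratinocyte sum. HFSC library 4 stood apart with a Langerhans cell marker sum of 76.4, against 2512 to 5235 in the other HFSC libraries. Its basal keratinocyte sum was 78381 against 158869 to 174803, and its T cell sum 182 against 391 to 428. The ribosomal RNA gene Rn45s took 13.1% of its reads, against 38.3% to 41.5% in the other HFSC libraries. In these bulk samples, fewer cells of a type and less RNA per cell cannot be told apart.

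DETCs held more transcript of the shared chain, of most private chains and of Jak3 than each keratinocyte population did, and less Il15ra. Of the 10 genes, 7 were called higher in DETCs in each comparison (limma, Benjamini-Hochberg adjusted p below 0.05): Il2rg, Il2rb, Il2ra, Il7r, Il4ra, Il21r and Jak3. The share of all tested genes called higher was 19.9% against Thy1hi cells, 18.9% against Thy1- cells, 20.5% against YFP+ cells and 21.2% against HFSCs. Il15ra was called lower in each comparison, as were 16.6%, 15.2%, 17.6% and 18.5% of all tested genes in the same order. Its call against HFSCs was lost under several alternatives, such as libraries of the same number as a block (log2 fold change -0.38, adjusted p = 0.177). With quantile normalization the balance over all genes turned, to 2921 higher and 3936 lower against Thy1hi cells in place of 3425 and 2864, 2813 and 3812 against Thy1- cells in place of 3250 and 2621, 2851 and 4048 against YFP+ cells in place of 3522 and 3025, and 3024 and 3973 against HFSCs in place of 3644 and 3189. Each of the 8 members was called in the same direction under that scaling. The median log2 fold change of the 10 genes was 2.45 against Thy1hi cells, 2.81 against Thy1- cells, 2.70 against YFP+ cells and 3.15 against HFSCs. Over all tested genes these medians lay between -0.09 and 0.05.

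**Figure D1:**
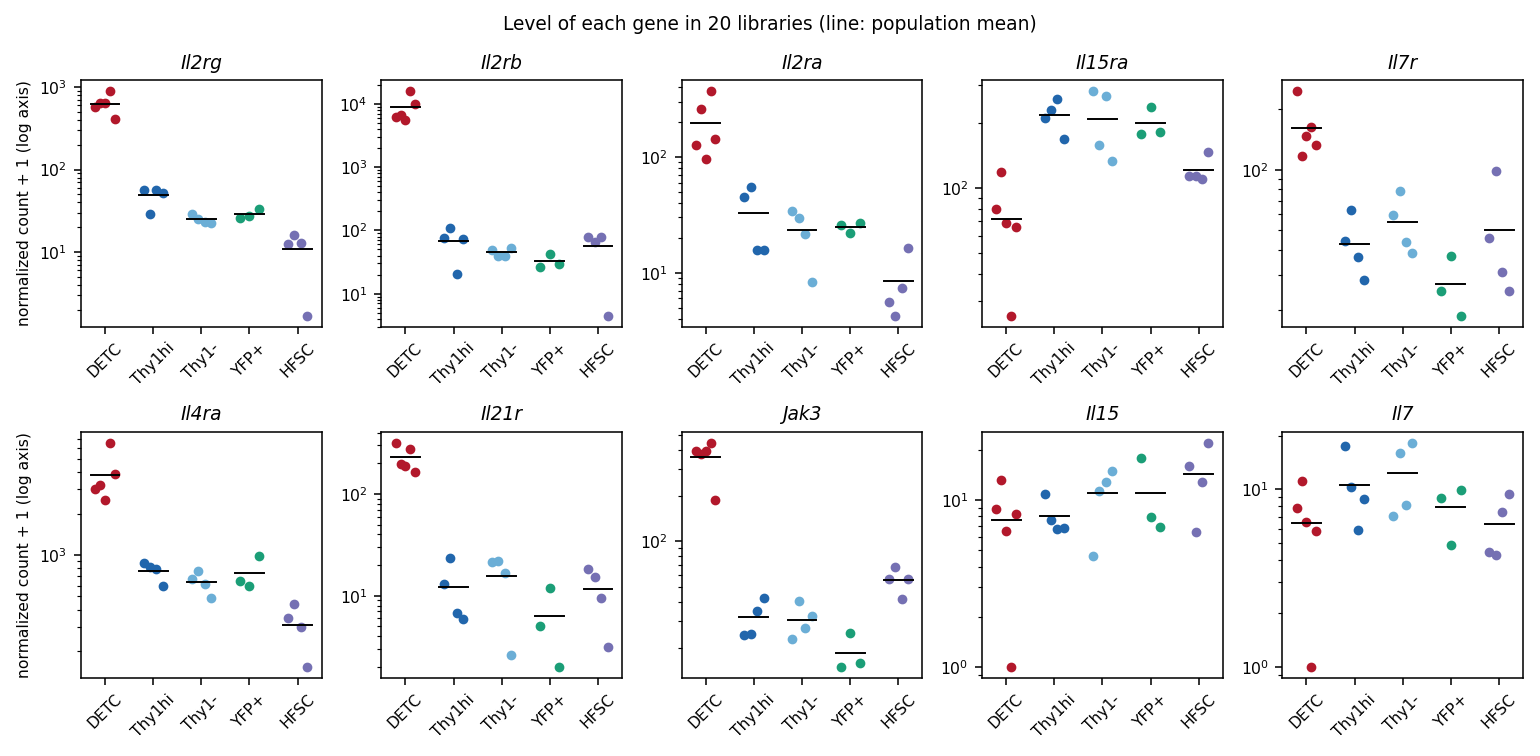
Normalized count plus 1 (log axis) of each of the 10 genes in 20 libraries, by population; points are libraries and lines are population means. DETC libraries lie above all others for Il2rg, Il2rb, Il2ra, Il7r, Il4ra, Il21r and Jak3, and Il15 and Il7 stay at or below 21.0 throughout.

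Il2rg encodes the common gamma chain itself. Its normalized counts were 568, 638, 635, 884 and 411 in DETC libraries 1, 2, 3, a and b. Thy1hi libraries 1 to 4 held 55.2, 27.7, 56.1 and 51.4. Thy1- libraries held 28.0, 24.3, 22.1 and 21.3, YFP+ libraries 24.9, 26.3 and 32.7, and HFSC libraries 11.5, 15.2, 11.8 and 0.70. The lowest DETC library was thus far above the highest keratinocyte library. DETCs exceeded Thy1hi cells by a log2 fold change of 3.70 (SE 0.46, adjusted p = 2.17e-06) and HFSCs by 6.23 (SE 0.46, adjusted p = 1.83e-09). The value against HFSCs depended on HFSC library 4, which had 1 read of Il2rg, and was 5.47 without it (adjusted p = 3.72e-11).

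The order of the population means of Il2rg was DETC, Thy1hi, YFP+, Thy1- and HFSC. Libraries overlapped between Thy1hi and YFP+ cells and between YFP+ and Thy1- cells, but not between Thy1- cells and HFSCs. As a share of the DETC mean, Il2rg stood at 7.59% in Thy1hi cells, 4.46% in YFP+ cells, 3.81% in Thy1- cells and 1.56% in HFSCs.

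Il2rb, the signalling chain that receptors for interleukins 2 and 15 share, had the largest difference of the 10 genes in each comparison with DETCs. Its normalized counts were 6318, 6585, 5605, 15726 and 10103 in DETC libraries 1, 2, 3, a and b. Thy1hi libraries held 75.1, 107, 19.5 and 70.8, and Thy1- libraries 47.4, 38.2, 38.7 and 50.8. YFP+ libraries held 24.9, 41.0 and 28.7, and HFSC libraries 78.5, 65.2, 77.0 and 3.50. No DETC library came near the highest keratinocyte library, and libraries of neighbouring keratinocyte populations overlapped at each step. The log2 fold change was 7.12 against Thy1hi cells (SE 0.63, adjusted p = 2.18e-08), 7.53 against Thy1- cells (SE 0.63, adjusted p = 9.90e-09), 8.01 against YFP+ cells (SE 0.69, adjusted p = 1.53e-08) and 7.80 against HFSCs (SE 0.63, adjusted p = 6.25e-09). Without HFSC library 4 the last value was 6.79 (adjusted p = 2.59e-10).

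Il2ra encodes the alpha chain that raises the affinity of the interleukin 2 receptor. DETC libraries 1, 2, 3, a and b held 126, 258, 94.1, 366 and 141 normalized counts. Thy1hi libraries held 44.2, 54.0, 14.6 and 14.6, Thy1- libraries 32.8, 28.9, 20.5 and 7.38, YFP+ libraries 24.9, 20.9 and 25.8, and HFSC libraries 4.62, 3.26, 6.41 and 15.4. DETC libraries did not overlap the others but spread over a wide range, with libraries a and 2 highest. DETCs exceeded Thy1hi cells by 2.65 on the log2 scale (SE 0.51, adjusted p = 0.000337) and HFSCs by 4.57 (SE 0.51, adjusted p = 4.99e-07).

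Il7r, a receptor chain for interleukin 7, had the smallest rise of the 7 genes against Thy1hi cells, Thy1- cells and HFSCs. DETC libraries 1, 2, 3, a and b held 245, 116, 146, 163 and 132 normalized counts. The range was 27.2 to 61.9 in Thy1hi cells, 37.7 to 77.5 in Thy1- cells, 17.8 to 36.4 in YFP+ cells and 23.8 to 97.8 in HFSCs. DETC libraries did not overlap the others, although HFSC library 2, at 97.8, came close to DETC library 2. Against Thy1hi cells the log2 fold change was 1.92 (SE 0.36, adjusted p = 0.000275), and against Thy1- cells 1.56 (SE 0.36, adjusted p = 0.00220).

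Il4ra, the chain that binds interleukin 4 and, with Il13ra1, interleukin 13, was the member with the highest level per exon length in each keratinocyte population. DETC libraries 1, 2, 3, a and b held 3040, 3203, 2512, 6527 and 3896 normalized counts. The range was 596 to 872 in Thy1hi cells, 484 to 768 in Thy1- cells, 599 to 983 in YFP+ cells and 153 to 439 in HFSCs. DETC libraries did not overlap any of these, and HFSC libraries lay below those of Thy1hi, Thy1- and YFP+ cells. Against Thy1hi cells the difference was 2.25 on the log2 scale (SE 0.28, adjusted p = 2.08e-06), and against HFSCs 3.64 (SE 0.28, adjusted p = 2.75e-09).

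Il21r encodes the interleukin 21 receptor chain. DETC libraries 1, 2, 3, a and b held 317, 195, 187, 277 and 162 normalized counts, whereas the other 15 libraries held 0.99 to 22.4, from 1 to 20 reads. The groups did not overlap. The log2 fold change was 4.40 against Thy1hi cells (SE 0.66, adjusted p = 1.95e-05), 4.20 against Thy1- cells (adjusted p = 4.22e-05), 5.50 against YFP+ cells (adjusted p = 3.77e-06) and 4.54 against HFSCs (adjusted p = 1.32e-05). Single libraries moved these values, for a cause that was not tested. The fold change against Thy1- cells was 3.47 without Thy1- library 4 (adjusted p = 0.000164). That against YFP+ cells was 6.13 without YFP+ library 2 (adjusted p = 5.97e-06) and 4.85 without YFP+ library 3 (adjusted p = 9.01e-05).

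Jak3, the kinase bound to the gamma chain, held 394, 374, 394, 443 and 187 normalized counts in DETC libraries 1, 2, 3, a and b. Thy1hi libraries held 23.2, 23.7, 34.1 and 41.7, Thy1- libraries 21.9, 39.3, 26.0 and 31.2, YFP+ libraries 14.0, 24.0 and 14.9, and HFSC libraries 55.4, 67.3, 40.6 and 56.1. Library b was the lowest in DETCs and still exceeded the highest HFSC library. Outside DETCs the HFSC mean was the highest, unlike Il2rg, Il2ra and Il4ra, whose HFSC means were the lowest. Jak3 rose by 3.49 on the log2 scale against Thy1hi cells (SE 0.28, adjusted p = 5.95e-09) and 2.65 against HFSCs (SE 0.28, adjusted p = 2.55e-07).

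Il15ra, the chain that captures interleukin 15 and presents it to neighbouring cells, ran the other way. DETC libraries 1, 2, 3, a and b held 79.3, 117, 68.0, 24.7 and 64.9 normalized counts. Thy1hi libraries held 210, 229, 258 and 167, and Thy1- libraries 279, 157, 265 and 133. YFP+ libraries held 176, 236 and 181, and HFSC libraries 113, 113, 109 and 146. DETC libraries lay below those of Thy1hi, Thy1- and YFP+ cells, while DETC library 2 overlapped the HFSC range. Il15ra fell by 1.73 on the log2 scale against Thy1hi cells (SE 0.32, adjusted p = 0.000206), by 1.63 against Thy1- cells (SE 0.32, adjusted p = 0.000466) and by 1.62 against YFP+ cells (SE 0.35, adjusted p = 0.000962).

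Against HFSCs the fall of Il15ra was smaller, with a log2 fold change of -0.90 (SE 0.32, adjusted p = 0.0290; exact permutation p = 0.0476). This call was lost with libraries of the same number as a block (log2 fold change -0.38, adjusted p = 0.177, the unnumbered DETC libraries a and b left out), with that block over all populations (-0.54, adjusted p = 0.154), with these populations fitted alone (adjusted p = 0.0866) and with no filter on low values (adjusted p = 0.0569). It was also lost without DETC library a (-0.57, adjusted p = 0.0763) and without HFSC library 4 (-0.81, adjusted p = 0.0703). Over the ways of processing other than leaving out a library, its adjusted p ran from 0.0234 to 0.177.

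Keratinocyte markers and Il15ra were both lower in DETC libraries than in Thy1hi libraries. The 8 basal keratinocyte markers in DETC libraries 1, 2, 3, a and b reached 26.8%, 19.9%, 25.8%, 6.33% and 23.2% of their Thy1hi mean, and Il15ra reached 36.7%, 54.2%, 31.5%, 11.4% and 30.0% of its own. Library a was the lowest in both, but library 2 had the highest Il15ra and the second lowest keratinocyte share. The part of these transcripts in the Il15ra level of DETC libraries was not tested.

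**Figure D2:**
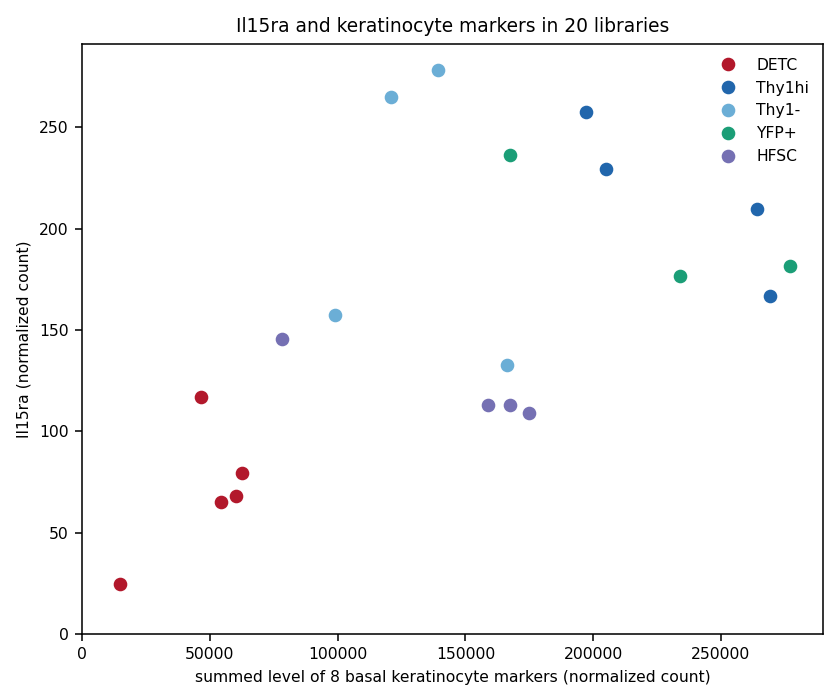
Il15ra (normalized count) against the summed normalized count of 8 basal keratinocyte markers for 20 libraries coloured by population. The 5 DETC libraries lie at the lower left, with DETC library a lowest on both axes, and HFSC libraries 1 to 3 hold 109 to 113 Il15ra.

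The ligands were near the limit of detection. Il15, which sustains DETCs and NK cells, held 7.83, 12.2, 5.53, 0 and 7.21 normalized counts in DETC libraries 1, 2, 3, a and b, from at most 12 reads. The other 15 libraries held 3.65 to 21.0, with a mean of 13.3 ± 6.50 (SD, n = 4) in HFSCs and of 7.01 ± 1.99 (SD, n = 4) in Thy1hi cells. All populations overlapped. The log2 fold change of DETCs was -0.45 against Thy1hi cells (SE 0.62, adjusted p = 0.635) and -1.18 against HFSCs (SE 0.62, adjusted p = 0.138), so a difference was not detectable at this depth. The value against HFSCs was -0.55 without DETC library a (adjusted p = 0.416).

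Il7, a survival factor for T cells, held 6.85, 10.2, 5.53, 0 and 4.80 normalized counts in DETC libraries 1, 2, 3, a and b, and 3.26 to 17.2 elsewhere. Populations overlapped at every step of the order of means. DETCs differed from Thy1hi cells by a log2 fold change of -0.95 (SE 0.60, adjusted p = 0.235) and from HFSCs by -0.25 (SE 0.60, adjusted p = 0.761). In DETC library a, 0 reads of Il15 and of Il7 allow up to 4.12 normalized counts of each, for counting error only. Without library a the Il15 difference from Thy1hi cells was 0.18 and the Il7 difference from HFSCs was 0.33. Gm16685 overlaps the span of Il7 and held 0.97 to 21.9 normalized counts, and whether counting used strand is not known, so the level of Il7 is uncertain.

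**Figure D3:**
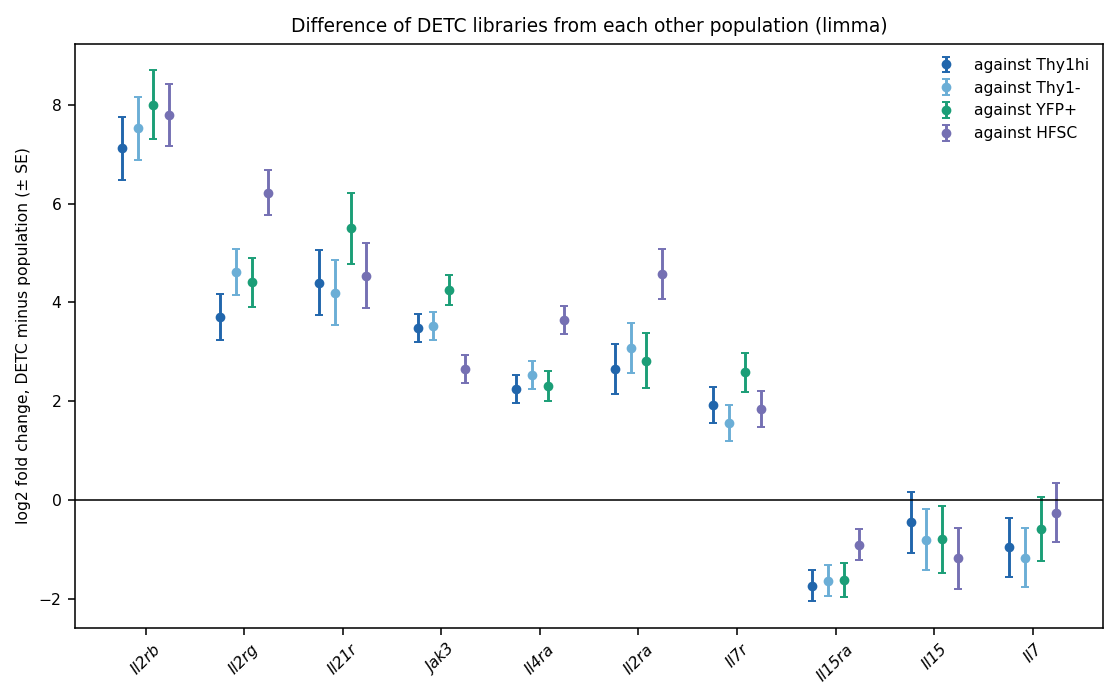
Log2 fold change (± SE, limma) of DETC libraries from each of the other populations for the 10 genes. Il2rb lies highest, at 7.12 to 8.01, Il15ra lies below 0 in each comparison, and Il15 and Il7 lie between -1.18 and -0.25.

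Exact permutation tests of mean log2 values gave the smallest p that the design allows for Il2rg, Il2rb, Il2ra, Il7r, Il4ra, Il21r and Jak3 in each comparison with DETCs. That p is 0.00794 (two-sided) for 5 libraries against 4 and 0.0179 for 5 against 3. The comparisons share the DETC libraries and are therefore not independent of each other. The labels do not say that libraries came from separate animals, so p-values measure the spread between libraries, which may be technical.

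Division by exon length allowed levels to be set beside each other. In DETCs, normalized counts per kb of exon were 2068 ± 982 (SD, n = 5) for Il2rb, 639 ± 264 for Il4ra and 263 ± 71.4 for Il2rg. Il21r, Jak3, Il2ra and Il7r followed at 68.5 ± 19.9, 67.0 ± 18.5, 34.5 ± 19.8 and 34.4 ± 10.8 per kb, and those 4 overlapped. Il15ra stood at 15.9 ± 7.43 per kb. In Thy1hi cells the order was different, with Il4ra at 128 ± 20.2, Il15ra at 48.6 ± 8.58 and Il2rg at 19.9 ± 5.63 per kb (SD, n = 4).

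The balance of the receptor chains differed between populations on the same per-length scale. Il2rb exceeded Il2rg 4.92- to 13.7-fold in DETC libraries, 2.39- to 3.79-fold in HFSC libraries, and stood at 0.194 to 2.15 times Il2rg in the libraries of Thy1hi, Thy1- and YFP+ cells. Il4ra exceeded Il2rg 1.57- to 3.77-fold in DETCs, 4.61- to 12.6-fold in Thy1hi, Thy1- and YFP+ cells, and 10.1- to 86.8-fold in HFSCs. The ratios of HFSC library 4, 2.78 for Il2rb and 86.8 for Il4ra, rest on 1 read of Il2rg. The exon model of Il2rb was taken from another version of its gene identifier, so its length is approximate.

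**Figure D4:**
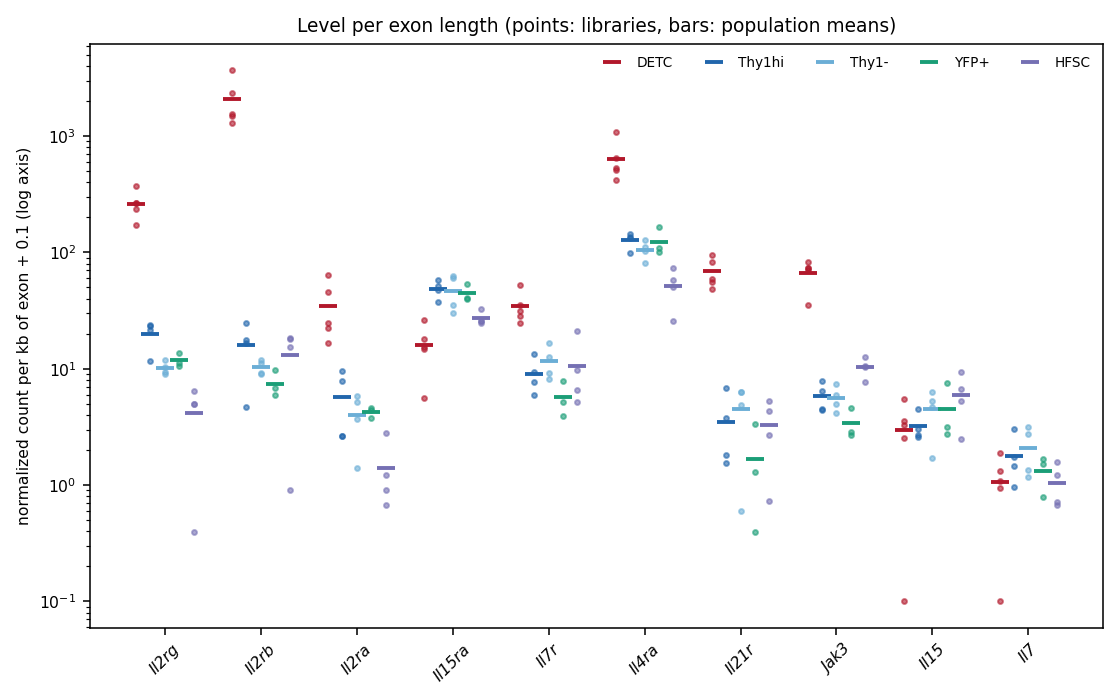
Normalized count per kb of exon plus 0.1 (log axis) for the 10 genes; points are libraries and bars are population means. Il2rb and Il4ra are highest in DETCs, at means of 2068 and 639 per kb, and Il4ra is highest in each keratinocyte population.

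T cell transcripts in keratinocyte libraries were set beside these genes. A panel of 14 T cell and gamma delta T cell receptor markers had a median of 1.08% of its DETC level in Thy1hi cells, 0.840% in Thy1- cells, 0.519% in YFP+ cells and 0.993% in HFSCs. The highest marker was Cd3d in each, at 13.7%, 15.4%, 7.89% and 10.3% of its DETC level in the same order. None of the 10 T cell markers was at 0 in a whole population, although Cd2 was at 0 in an HFSC library and Cd96 in a Thy1- library. The lowest marker stood at 0.841%, 0.519%, 0.214% and 0.445%. Il2rb stood at 0.767%, 0.494%, 0.356% and 0.632% of its DETC mean, below each of the 14 markers in Thy1hi and Thy1- cells, and exceeded the median of the markers in 1 of 15 libraries. Across those 15 libraries the logarithms of Il2rb and of the marker median had Pearson r = 0.77 and Spearman rho = 0.81, a description over libraries that share sort, depth and scaling.

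The relation with the markers was looser for other members. Il4ra held 3.98% to 25.6% of its DETC mean and exceeded the marker median in 15 of 15 libraries (Pearson r = -0.03), and Jak3 did so in 15 of 15 at 3.89% to 18.8% (r = 0.37). Il2rg exceeded the marker median in 14 of 15 libraries, HFSC library 4 being the exception at 0.112%. The part of T cell transcripts in the keratinocyte levels of these genes was not tested.

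**Figure D5:**
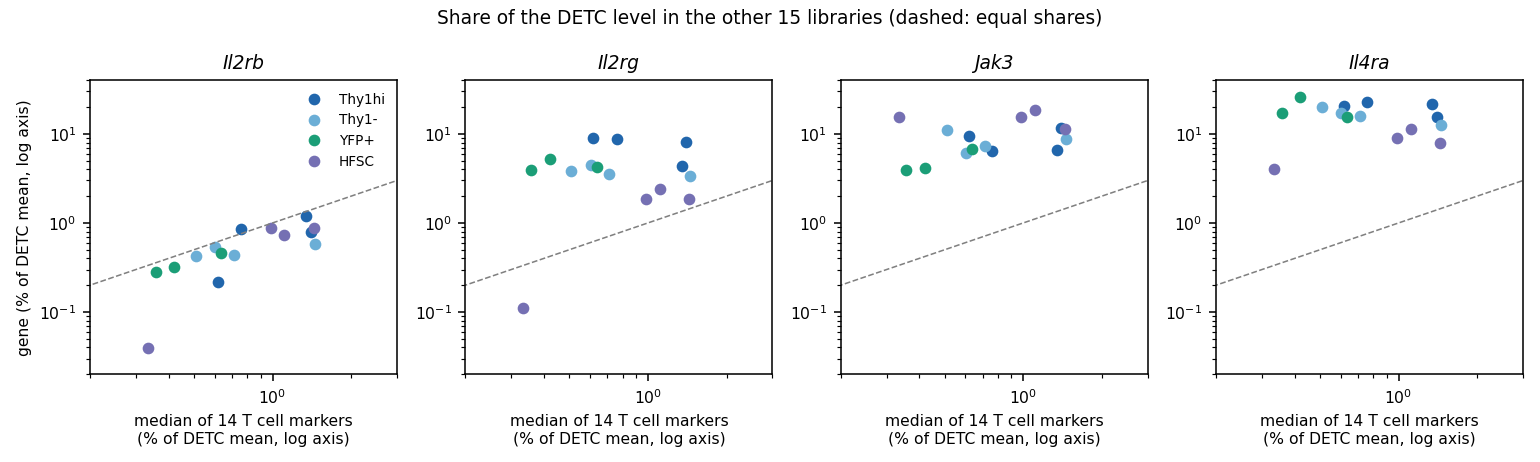
Level of Il2rb, Il2rg, Jak3 and Il4ra in the 15 keratinocyte libraries as a percent of the DETC mean, against the median percent of 14 T cell markers in the same library (both log axes; dashed line, equal shares). Il2rb lies above the dashed line in 1 library, while Jak3 and Il4ra lie above it in all 15.

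Langerhans cells, the antigen-presenting cells of the epidermis, were also examined by their markers. The 7 Langerhans markers summed to 1133 to 3341 in DETCs, 561 to 1342 in Thy1hi cells, 1012 to 2059 in Thy1- cells, 649 to 1273 in YFP+ cells and 76.4 to 5235 in HFSCs, and none of the 7 was called between DETCs and Thy1hi cells. None of these markers was at 0 in a whole population. HFSC library 4, with the sum of 76.4, also held the lowest Il2rg, Il2rb and Il4ra of all 20 libraries but 21.0 normalized counts of Il15, the highest of the 20. Markers of alpha beta T cells summed to 382 to 759 in DETCs and 10.9 to 61.5 elsewhere. Of these markers, Cd8b1 reached at most 2.63 in Thy1hi, 1.22 in Thy1-, 2.32 in YFP+ and 2.14 in HFSC libraries. It thus passed the filter on low values only through DETC libraries, which fixed its direction. Trac, Cd5 and Cd4 were also low outside DETCs, so the calls of this list are not given. The 4 gamma delta T cell receptor markers summed to 7963 to 14913 in DETCs. NK cell markers, which DETCs partly share, summed to 1255 to 2241 in DETCs and 6.93 to 61.9 elsewhere. The receptor gene Klrk1 made up most of that DETC sum, with a mean of 1509, whereas Ncr1, Klrb1c and Eomes had means of 0.60, 12.4 and 10.3, and Eomes stood at 22.8 in Thy1hi cells (adjusted p = 0.274). Fibroblast markers reached 1946 in a Thy1hi library, and melanocyte, myeloid and mast cell markers stayed at or below 291, 115 and 3.95. Their part in these results was not tested.

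Among the keratinocyte populations, Thy1hi cells were compared with HFSCs, Thy1- cells and YFP+ cells, and Thy1- cells with HFSCs. Thy1hi cells were called above HFSCs for 3 of the 10 genes, Il2rg, Il4ra and Il2ra, against 6.51% of all tested genes. Il2rg had a log2 fold change of 2.52 (SE 0.49, adjusted p = 0.00142; exact permutation p = 0.0286, the smallest possible), and 1.77 without HFSC library 4 (adjusted p = 0.000263). With the replicate number as a block in these populations alone the call of Il2rg was lost (adjusted p = 0.0772). Il4ra had 1.40 (SE 0.29, adjusted p = 0.00301), with no overlap between the libraries. Il2ra had 1.92 (SE 0.54, adjusted p = 0.0210), its libraries overlapped, and the call was lost without any one of Thy1hi library 1 (adjusted p = 0.0803), Thy1hi library 2 (0.0831), HFSC library 1 (0.0553) and HFSC library 2 (0.0611). It was also lost with a pseudocount of 10 (1.17, adjusted p = 0.0507), with these populations alone (0.0704) and with their replicate block (0.157). Il15ra did not overlap between Thy1hi cells and HFSCs but missed the threshold (log2 fold change 0.83, SE 0.34, adjusted p = 0.110). It was called with the block over all populations (0.0238), with these populations alone (0.0224) and with DESeq2 (0.0464). Jak3 went the other way and its libraries overlapped (log2 fold change -0.84, SE 0.30, adjusted p = 0.0678). Over the ways of processing other than leaving out a library, the adjusted p of Jak3 ran from 0.0251 to 0.196. With single libraries left out it ran from 0.0387 to 0.187.

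Thy1- cells were called above HFSCs for Il4ra alone, against 2.56% of all tested genes. Its log2 fold change was 1.11 (SE 0.29, adjusted p = 0.0283). The call was lost without any one of Thy1- library 1 (adjusted p = 0.0853), Thy1- library 2 (0.0894), Thy1- library 3 (0.0683), HFSC library 3 (0.0544) and HFSC library 4 (0.0762), and with these populations alone (0.0773). Il2rg (log2 fold change 1.60, SE 0.49, adjusted p = 0.0538) and Jak3 (-0.88, SE 0.30, adjusted p = 0.0827) did not overlap between these populations and missed the threshold. Without HFSC library 4 the value of Il2rg was 0.85. Il2rg was called under 6 alternatives, with a mean of at least 50 (adjusted p = 0.0451), rescaling to the same total (0.0284), quantile normalization (0.04999), the block over all populations (0.0312), DESeq2 (0.0139) and without HFSC library 2 (0.0266). Jak3 was called with that block (0.0277) and with DESeq2 (0.0387).

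None of the 10 genes was called by limma between Thy1hi and Thy1- cells, where 0.337% of all tested genes were. None reached an unadjusted p below 0.05 in that fit, which did not use the replicate number. Libraries of the same number deviated together in these populations (r = 0.293 to 0.716), although pairs of different number ran from -0.651 to 0.514. With that number as a block 6.61% of all genes were called and again none of the 10 genes, and edgeR and DESeq2 also called 0. Il2rg came closest, with a log2 fold change of 0.92 (SE 0.49, adjusted p = 0.763, and 0.0794 with the block). Its libraries overlapped only through Thy1hi library 2, at 27.7 against 28.0 in Thy1- library 1. Within each of the 4 pairs of the same number, Il2rg and Il4ra were higher in Thy1hi cells and Il7r was lower. The other members went both ways. With the block the adjusted p was 0.129 for Il4ra and 0.372 for Il7r. No member had libraries without overlap here, as 6.77% of all tested genes did.

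YFP+ and Thy1hi cells did not differ detectably either. None of the 10 genes was called by limma, and 0.0116% of all tested genes were, with 0 of the 10 called by edgeR and 0 by DESeq2. Jak3 was the 1 gene with an unadjusted p below 0.05, at a log2 fold change of -0.77 (SE 0.32, adjusted p = 0.493), and its libraries overlapped.

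Other genes linked to the pathway were followed as lists. The list of ligands and receptor chains also holds genes for interleukin 13 and Tslp, which are not among the gamma chain ligands named above. Crlf2 and Il13ra1, the genes called in that list apart from those fixed by the filter, are of this kind. Of all tested genes, 19.9% were called higher and 16.6% lower in DETCs against Thy1hi cells, and 21.2% and 18.5% against HFSCs, with medians near 0, and each list's counts stand beside these shares. Of 10 ligands and private receptor chains outside the members, 8 were tested, and 3 of these, Il2, Il13 and Il9r, passed the filter on low values only through DETC libraries, so their direction was fixed by it. Of the other 5, 1 was called higher and 1 lower in DETCs against Thy1hi cells, with a median log2 fold change of -0.49, and 1 and 1 against HFSCs, with a median of 0.90. Il13, a cytokine that acts through Il4ra, held 24.0 to 56.2 normalized counts in DETCs, at most 3 reads in a Thy1hi library and 0 reads in each HFSC library. Il2, the T cell growth factor, held 9.61 to 31.3 in DETCs and at most 2 reads in a Thy1hi library. Crlf2, the receptor chain for Tslp, was higher (85.4 ± 20.6 in DETCs against 16.5 ± 1.94 in Thy1hi cells), by a log2 fold change of 2.27 (SE 0.41, adjusted p = 0.000159). Il9r held 33.1 ± 12.7 in DETCs and 3.65 ± 5.52 in Thy1hi cells. The log2 fold change of Il9r was 3.50, and 4.22 without Thy1hi library 2, given as a description since the filter fixed its direction. Il13ra1, the partner of Il4ra for interleukin 13, fell by 2.12 on the log2 scale (SE 0.31, adjusted p = 1.72e-05), and by 0.80 against HFSCs (adjusted p = 0.0467), a call lost under 9 of 21 alternatives (adjusted p of at most 0.145). These were no filter, the deposited row order, those populations alone, and leaving out any one of DETC libraries 1, 2 and a and HFSC libraries 1, 2 and 3. Il4 and Il9 were too low to be tested.

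Of 8 kinases and STAT factors, 4 rose and none fell against Thy1hi cells, with 5 and none against HFSCs, beside 19.9% and 21.2% of all genes called higher. Their medians were 0.56 and 0.65. Stat5b rose by a log2 fold change of 1.48 (SE 0.20, adjusted p = 7.97e-06), Jak1 by 1.05 (SE 0.23, adjusted p = 0.000979), Stat3 by 0.99 (SE 0.32, adjusted p = 0.0187) and Stat5a by 0.81 (SE 0.24, adjusted p = 0.0100). The call of Stat3 was lost without DETC library a (0.74, adjusted p = 0.0562) or Thy1hi library 4 (0.93, adjusted p = 0.0502), and with the replicate number as a block over all populations, which leaves out DETC libraries a and b (0.32, adjusted p = 0.304). Against HFSCs the call of Stat5a (0.61, adjusted p = 0.0460) was lost under 12 of 21 alternatives (adjusted p of at most 0.126). These were no filter, rescaling to the same total, both replicate blocks, those populations alone, edgeR, and leaving out any one of DETC libraries 1, 2 and b and HFSC libraries 1, 3 and 4. The spans of Stat3 and Stat5a overlap at their ends. Stat6, the factor of interleukin 4, stood at 576 ± 64.0 in DETCs and had a log2 fold change of -0.12 (adjusted p = 0.574).

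Feedback inhibitors were called higher for 3 of 6 genes against Thy1hi cells and 4 of 6 against HFSCs, and lower for none, beside the same shares of all genes. Their medians were 1.32 and 1.29. Those called against Thy1hi cells were Ptpn6, a phosphatase of immune receptors (2.98, SE 0.25, adjusted p = 7.62e-09), Socs2 (2.32, SE 0.44, adjusted p = 0.000254) and Socs1 (2.29, SE 0.43, adjusted p = 0.000258). Cish (-0.81, SE 0.42, adjusted p = 0.145) and Socs3 (-1.12, SE 0.65, adjusted p = 0.199), named after their values were seen, missed the threshold, although each DETC library lay below each Thy1hi library. The share of all tested genes without overlap in that comparison was not counted. Among 10 tested targets of gamma chain signalling, Gzmb passed the filter only through DETC libraries. Of the other 9, 3 rose and none fell against Thy1hi cells, with 5 and none against HFSCs, and the medians were 0.14 and 0.64. Those called against Thy1hi cells were the kinase Pim2 (4.72, SE 0.56), the survival factor Bcl2 (3.38, SE 0.26) and the cyclin Ccnd3 (0.80, SE 0.20). Their adjusted p were 1.18e-06, 2.50e-09 and 0.00356 in that order. The fold change of Pim2 was 3.88 without Thy1hi library 3 (adjusted p = 3.29e-07). The protease Gzmb, its direction fixed by the filter, had a log2 fold change of 4.69. This value was 4.05 without Thy1hi library 1 and 5.32 without Thy1hi library 2. Against HFSCs the call of Ccnd3 (0.64, adjusted p = 0.0162) was lost without HFSC library 4 (adjusted p = 0.0578). Myc, Mcl1 and Bcl2l1 were not called in either comparison.

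In the PI3K arm of the pathway, 4 of 8 genes rose and 2 fell against both Thy1hi cells and HFSCs, with medians of 0.47 and 0.55. The 2 falls in 8 are not far from the 16.6% and 18.5% of all genes called lower. Pik3cd, the leukocyte catalytic subunit, had 2414 ± 720 normalized counts in DETCs (SD, n = 5) against 23.8 ± 6.57 in Thy1hi cells (SD, n = 4), a log2 fold change of 6.60 (SE 0.35, adjusted p = 6.43e-11). Pik3r1 and Pik3r5, regulatory subunits, rose by 3.15 and 3.01, and Pik3ca by 1.04. Pik3cb fell by 1.17 (SE 0.26, adjusted p = 0.00130). Mtor, named after its values were seen since its libraries overlapped, fell by 0.38 (SE 0.14, adjusted p = 0.0415).

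The genes whose pattern over the 20 libraries was most like each member were named by Pearson r of log2 values, as a description in which the contrast of DETCs with the rest takes most of the spread. For Il2rb they were Sytl3 (r = 0.994) and Fmnl1 (0.993). For Il2rg they were Ets1 (0.981), Vps37b (0.976) and Anxa11 (0.975), and for Il4ra Ets1 (0.982), Ctsc (0.977) and Galnt6 (0.976). Jak3 was followed by Bcl2 (0.972) and Foxred2 (0.969), and Il21r by Tnfrsf9 (0.963), Agap2 (0.961) and C530008M17Rik (0.961). Il2ra was followed by Tmem173 (0.953), St3gal6 (0.936) and Klf12 (0.933), and Il7r by Epsti1 (0.952), the member Il21r (0.937) and Gimap6 (0.936).

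Genes most like Il15ra were instead lower in DETCs than in Thy1hi cells: Myo19 (r = 0.952), Rab38 (0.947) and Osmr (0.943), the last a receptor chain for oncostatin M with 319 normalized counts in DETCs and 825 in Thy1hi cells. The ligands had looser likeness, with r of at most 0.884 for Il15 (Slc25a26, then Fastkd2 and Pak3) and 0.829 for Il7 (Rspo3, then Ogfod3 and Stap2).

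Of the members, 2 pairs lie side by side in the genome (mm10, Ensembl gene spans). Il2ra (chromosome 2, 11642807 to 11693193, + strand) ends 12.1 kb before Il15ra (11705290 to 11734317, + strand), and those neighbours differed in opposite directions in DETCs. Il4ra (chromosome 7, 125552120 to 125579474, + strand) ends 24.0 kb before Il21r (125603429 to 125633570, + strand), and both were higher. The other members are Il2rg (chromosome X, 101264378 to 101268255, - strand), Il2rb (chromosome 15, 78480553 to 78495066, - strand), Il7r (chromosome 15, 9505788 to 9530176, - strand), Jak3 (chromosome 8, 71676296 to 71690575, + strand), Il15 (chromosome 8, 82331632 to 82403222, - strand) and Il7 (chromosome 3, 7569994 to 7613760, - strand).

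Promoter windows of 300 bases (250 before to 50 after the start) came from RefSeq on GRCm38.p6, the build of mm10, and 7 of the 10 genes had an entry. The 4 shown contrast receptor chains that were high in DETCs, Il2ra (chr2:11642542-11642841, + strand), Il2rg (chrX:101268206-101268505, - strand) and Il7r (chr15:9529827-9530126, - strand), with Il15ra, which was low (chr2:11705043-11705342, + strand). Each is written 5′ to 3′, and capitals mark matches to the motifs given after them.
Il2ra: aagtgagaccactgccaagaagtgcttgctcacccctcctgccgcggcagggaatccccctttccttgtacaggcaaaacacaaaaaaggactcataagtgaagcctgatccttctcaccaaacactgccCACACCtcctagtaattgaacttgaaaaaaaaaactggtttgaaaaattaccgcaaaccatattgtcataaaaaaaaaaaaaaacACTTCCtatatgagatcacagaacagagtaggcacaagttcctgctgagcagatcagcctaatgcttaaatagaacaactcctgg
Il2rg: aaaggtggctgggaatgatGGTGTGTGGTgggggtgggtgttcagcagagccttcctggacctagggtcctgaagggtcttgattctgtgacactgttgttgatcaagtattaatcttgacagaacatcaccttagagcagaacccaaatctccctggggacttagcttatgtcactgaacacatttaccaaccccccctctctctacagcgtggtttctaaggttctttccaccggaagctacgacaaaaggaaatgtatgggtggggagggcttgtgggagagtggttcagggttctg
Il7r: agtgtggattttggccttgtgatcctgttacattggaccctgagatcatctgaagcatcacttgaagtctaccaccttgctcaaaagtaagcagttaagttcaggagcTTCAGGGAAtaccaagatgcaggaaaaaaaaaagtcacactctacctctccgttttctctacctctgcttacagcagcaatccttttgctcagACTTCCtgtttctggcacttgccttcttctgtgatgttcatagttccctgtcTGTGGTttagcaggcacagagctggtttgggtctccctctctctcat
Il15ra: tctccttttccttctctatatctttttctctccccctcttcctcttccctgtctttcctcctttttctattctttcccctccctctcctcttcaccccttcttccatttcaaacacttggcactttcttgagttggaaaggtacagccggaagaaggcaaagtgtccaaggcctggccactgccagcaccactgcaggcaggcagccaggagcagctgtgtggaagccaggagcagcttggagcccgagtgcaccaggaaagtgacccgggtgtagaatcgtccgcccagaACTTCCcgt

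Letters searched on both strands were TTCNNNGAA for STAT factors, the interferon-stimulated response element (ISRE), TGTGGT for RUNX, GGAAGT for ETS and GGTGTG for T-box factors. They occurred in 8.30%, 3.44%, 16.8%, 23.8% and 19.0% of 32851 promoter windows of the same length. Il7r held the STAT, RUNX and ETS letters, and was the member with a STAT match. Il2rg held T-box and RUNX letters, which overlap in the printed sequence, Il2ra held T-box and ETS letters, and the Il15ra window shown held ETS letters. A second Il15ra window held T-box letters, Il21r held RUNX letters, and Il4ra and Jak3 held none of the 5. Of all windows, 52.9% held at least 1 of the 5. A match is a description of letters in the window.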

How the data were processed

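RNA-seq libraries were aligned by the authors with STAR to mm10 and counted with featureCounts on Ensembl genes. The authors deposited a signal, gene counts divided by DESeq2 size factors and rounded to 2 decimals. Dividing by the value of 1 read gave whole reads for 100% of values (within the rounding of 0.005, 0.02 of a read and 1e-06 of the value), 7781256 to 12982393 per library, of which the ribosomal RNA gene Rn45s took 13.1% to 41.5%. Depth sets counting error only. In the column of Thy1- library 4, 3212 genes were out of order and were put back. Correlation with the other libraries at those genes went from 0.109 to 0.939, and no member was among them. Of the DETC columns, 2 had names that match no single library and are called a and b.

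Log2(normalized count + 1) of 17204 genes with at least 10 in at least 3 libraries was fitted with limma over all 5 populations (two-sided, trend, Benjamini-Hochberg adjusted p of 0.05), with exact permutation tests beside single members. Fold changes on this scale understate the change of low genes. The members and lists were chosen with earlier results of these data known. All 10 members were named in comparisons with DETCs. In the other comparisons members were named where called or not overlapping, and some that met neither were named after their values were seen. From each pathway list up to 4 called genes with the largest rise and 4 with the largest fall were named, and the 3 genes most like each member, some of which are not reported here. Deviations of libraries of the same number had r = 0.293 to 0.716 between Thy1hi and Thy1- cells (4 pairs). Between DETCs and HFSCs they had r = 0.170 to 0.333 (3 pairs), and a block was also fitted in both. Pairs of different number ran from -0.651 to 0.514 and from -0.318 to 0.371. Whether the number marks a shared origin is therefore not known. Alternatives were other pseudocounts (0.1 and 10), filters, scalings, the deposited row order, the compared populations alone, blocks, leaving out each library, and edgeR and DESeq2 on the whole reads. The fits were tested on simulated data. Software was R 4.3.3, limma 3.58.1, edgeR 4.0.16, DESeq2 1.42.0, Python 3.11.15, numpy 2.4.6, pandas 2.3.3 and matplotlib 3.10.9.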

Additional observations from a re-analysis of the deposited data

Results flagged for a closer look

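In 40 groups of 4 or 5 libraries, 3 had a library far from the others, which is near the rate of about 1 in 20 groups that chance gives. Il2rg stood at 27.7 normalized counts in Thy1hi library 2, against 51.4 to 56.1 in the other Thy1hi libraries. Il15ra stood at 146 in HFSC library 4, against 109 to 113 in the other HFSC libraries. Jak3 stood at 187 in DETC library b, against 374 to 443 in the other DETC libraries.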

How the results depend on the processing

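Counts of members called against Thy1hi, Thy1- and YFP+ cells in DETCs (8 each), and between Thy1hi and Thy1- or YFP+ and Thy1hi cells (0 each), were the same under each alternative run. The count for DETCs against HFSCs was 7 to 8 when single libraries were left out, and 7 with no filter, with those populations alone and with either replicate block, against 8 otherwise. For Thy1hi cells against HFSCs the count of 3 became 5 with a replicate block over all populations, 1 with a replicate block of those populations alone, 5 with DESeq2, 2 with a pseudocount of 10, and 2 to 4 when single libraries were left out. For Thy1- cells against HFSCs the count of 1 became 2 with a mean of at least 50, 2 when rescaled to the same total, 2 with quantile normalization, 3 with the block over all populations, 0 with those populations alone, 3 with DESeq2, and 0 to 2 when single libraries were left out. Same-numbered libraries in these 2 comparisons did not all deviate together (r from -0.232). Between Thy1hi and Thy1- cells and between DETCs and HFSCs, the block changed no call of a member other than that of Il15ra in the latter. Nor did it change that of a named pathway gene other than Stat5a, also between DETCs and HFSCs. The ligands changed direction without any call: Il15 against Thy1hi cells was 0.34 and 0.15 under the blocks over all and over the compared populations and -0.75 to 0.18 when single libraries were left out (0.18 without DETC library a), and Il15 against Thy1- cells was 0.054 under the latter block. Il7 against YFP+ cells was 0.13 under both blocks and -0.90 to 0.0046 when single libraries were left out, and Il7 against HFSCs was 0.59 and 0.67 under the blocks, 0.0041 with edgeR, 0.025 with DESeq2 and -0.54 to 0.33 when single libraries were left out, the upper ends without DETC library a. The cause was not tested. Quantile normalization moved the median log2 fold change of all genes by -0.16 to -0.26 in comparisons with DETCs. Low reads limit Il15, Il7 and, outside DETCs, Il21r.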
